A study of Mus musculus with 10 samples.

Results

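The AP-1 (activator protein 1) genes were examined in SmoM2-expressing mouse epidermal cells. The 9 genes, chosen by name in the deposited table, were Fos, Fosb, Fosl1, Fosl2, Jun, Junb, Jund, Atf3 and Maff, of 49671 gene IDs in all. All 9 were among the 21995 genes that passed the filter on low values, which asked for a normalized count of 10 or more in 2 or more of the 10 libraries.

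AP-1 is a dimer of basic leucine zipper proteins that binds the TPA response element. Fos proteins (Fos, Fosb, Fosl1, also called Fra-1, and Fosl2, also called Fra-2) bind DNA only as partners of a Jun protein, whereas Jun proteins (Jun, Junb and Jund) also pair with one another. Atf3 is a stress-induced member of the related ATF/CREB family, and Maff is a small Maf protein that lacks a transactivation domain. Many of these genes are immediate early genes, whose transcription rises within minutes of growth factor, MAP kinase or stress signals, and enzymatic isolation of cells can itself induce them. In epidermis AP-1 proteins act in proliferation, wound repair and terminal differentiation, and Fos is required for malignant progression of mouse skin papillomas.

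Bulk RNA-seq was done on FACS-isolated cells of skin epidermis that carried SmoM2-YFP, a constitutively active Smoothened that switches on the Hedgehog pathway and drives basal cell carcinoma; the stated question was the part that Survivin (encoded by Birc5) plays in the formation of this tumour. There were 5 groups with 2 libraries each, and every group carried Rosa-SmoM2. The genotype Krt14-CREER/Rosa-SmoM2 was sampled at 6 weeks and at 8 weeks (Krt14 6-week and Krt14 8-week), and Krt14-CREER/Rosa-SmoM2/Survivin LOF at 6 weeks (LOF). Inv-CREER/Rosa-SmoM2 (Inv) and Inv-CREER/Rosa-SmoM2/Krt14rtTA/Survivin-GOF (GOF) were sampled at 8 weeks. TAM in the titles is taken to mean tamoxifen, the drug that activates CreER. Neither age nor sex was among the labels. The Krt14 promoter is active in basal keratinocytes and the involucrin (Inv) promoter in differentiating ones, so driver and starting cell cannot be told apart. The GOF group carries Krt14rtTA and Inv does not, so Krt14rtTA and Survivin genotype also cannot be told apart. GOF and Krt14 8-week differ in driver, Krt14rtTA and Survivin genotype at the same time, so these cannot be told apart either. Both Inv libraries are described as control pools, of what is not said. No label says that the 2 libraries of a group came from separate animals, so the p-values measure the spread between these libraries, which may be technical.

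Between 7693153 and 8870758 reads recovered from the values lay behind each library. Birc5, the targeted gene, stood at 961 and 1103 normalized counts in Krt14 6-week and 382 and 429 in LOF. It stood at 237 and 265 in Inv and 7277 and 16384 in GOF, so both changes were in the direction of the labels. In Krt14 8-week it had 1005 and 926, 3.85-fold the Inv level (limma adjusted p = 0.000726). Keratinocyte markers summed to between 166920 and 310231 in every library, with none of 8 at 0. Markers of other cell types moved with some groups. The summed melanocyte level (7 markers) was 3043 and 2887 in LOF against 925 and 885 in Krt14 6-week. It was 1336 and 1494 in Krt14 8-week, 2263 and 2392 in Inv, and 1961 and 1768 in GOF. The summed fibroblast level (7 markers, mostly Dcn) was 14803 to 37659 in LOF, Inv and GOF against 1300 to 2676 in both Krt14 groups. The summed sebocyte level (7 markers) was 41155 and 37976 in Inv against 8255 to 13971 elsewhere. Summed endothelial markers (5 genes) reached 1160 in GOF replicate 2 and 327 in GOF replicate 1, against 121 to 290 in the other 8 libraries. Xist, transcribed from the inactive X chromosome, stood at 30024 and 59594 in LOF and at 7589 and 56185 in GOF, against 51 to 194 in the other 6 libraries, so its level moves with Survivin genotype. Ddx3y, a gene of the Y chromosome, stood at 1336 and 956 in LOF and at 3328 and 970 in GOF. In the other 6 libraries it stood at 2289 to 2909. Sex was not labelled, so a difference in sex between libraries cannot be told apart from Survivin genotype. The part of these differences in the AP-1 results was not tested. In bulk RNA, fewer cells of a type and less RNA per cell cannot be told apart.

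Upstream sequences are shown for the 4 members that were higher in Krt14 8-week than in Krt14 6-week cells (Fos, Fosb, Jun and Atf3; 4.02% of all tested genes were called higher there) and for Maff, which was highest in GOF. Each is the 250 bases before a start in RefSeq (GRCm38.p6), written 5′ to 3′ on the strand of the gene. The table matched 8 of the 9 members; Fosl1 was not matched. Capitals mark matches to TGACNTCA, the octamer of CRE and Jun-type sites, or to its core TGACG (written CGTCA where it lies on the opposite strand).
Fos: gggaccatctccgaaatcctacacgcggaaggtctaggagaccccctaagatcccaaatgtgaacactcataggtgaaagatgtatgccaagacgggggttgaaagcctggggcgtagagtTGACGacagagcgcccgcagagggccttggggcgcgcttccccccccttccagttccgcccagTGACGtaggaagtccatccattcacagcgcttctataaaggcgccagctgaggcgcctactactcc
Fosb: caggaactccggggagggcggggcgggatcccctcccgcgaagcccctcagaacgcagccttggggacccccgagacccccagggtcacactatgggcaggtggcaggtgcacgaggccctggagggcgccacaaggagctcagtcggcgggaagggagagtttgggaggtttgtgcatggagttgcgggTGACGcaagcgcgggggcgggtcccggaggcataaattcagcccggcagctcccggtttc
Jun: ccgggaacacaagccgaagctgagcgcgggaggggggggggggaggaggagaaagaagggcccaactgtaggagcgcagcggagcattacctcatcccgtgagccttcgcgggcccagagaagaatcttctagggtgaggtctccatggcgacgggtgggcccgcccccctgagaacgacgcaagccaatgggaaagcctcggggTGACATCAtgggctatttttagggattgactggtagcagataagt
Atf3: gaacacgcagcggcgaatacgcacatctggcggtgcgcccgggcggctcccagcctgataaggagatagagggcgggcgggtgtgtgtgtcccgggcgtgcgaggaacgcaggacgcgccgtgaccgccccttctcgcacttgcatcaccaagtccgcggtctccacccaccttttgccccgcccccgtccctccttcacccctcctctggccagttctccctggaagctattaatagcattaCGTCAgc
Maff, the second of 3 starts: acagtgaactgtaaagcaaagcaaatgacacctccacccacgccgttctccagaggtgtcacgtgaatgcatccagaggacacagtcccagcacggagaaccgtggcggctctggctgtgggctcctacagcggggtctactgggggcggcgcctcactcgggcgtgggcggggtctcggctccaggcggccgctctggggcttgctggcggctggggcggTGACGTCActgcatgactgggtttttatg
The Fos window (chr12:85473640-85473889, plus strand) holds TGACG at 129 to 125 and at 66 to 62 bases before the start, and a TATAAA at 33 to 28. The Fosb window (chr7:19310046-19310295, minus strand) holds TGACG at 60 to 56 bases before the start. The Jun window (chr4:95052223-95052472, minus strand) holds TGACATCA at 45 to 38 and a CCAAT box at 65 to 61, and lies inside a transcript of the antisense gene Junos. The Atf3 window (chr1:191183334-191183583, minus strand) holds CGTCA at 7 to 3 bases before the start, and lies inside a longer Atf3 transcript. In GENCODE M21 the 7 bases next to the start, which include that CGTCA, are exon of the transcript Atf3-201. The Maff window (chr15:79347270-79347519, plus strand) holds the palindrome TGACGTCA at 29 to 22, which also counts as TGACG on both strands, and is intronic in a longer Maff transcript. Both strands of 32851 RefSeq windows of this length were searched: TGACNTCA was in 7.49% of them, TGACG in 17.8%, TATAAA in 12.4% and CCAAT in 33.9%. The 7-base TPA element TGANTCA, present in 6.75%, was not found in any of the 10 windows of the 8 matched members. The Fosl2 and Jund windows and that of the first Maff start held none of the 5 motifs searched. In GENCODE M21 all 250 bases of the Fosl2 window are exon of Fosl2 transcripts. The Jund window ends at 70697738, well before the GENCODE start of Jund at 70698949. Neither window lies directly before the GENCODE start of its gene. The Junb window held TGACG at 106 to 102 and CCAAT at 36 to 32, and that of the third Maff start TGACATCA at 45 to 38 and CGTCA at 122 to 118. The Maff start printed was chosen after its match was seen.

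Compared per kilobase of exon, Fos and Jun were the most abundant members. Jun came first in Krt14 6-week (1542 normalized counts per kilobase ± 7.76, SD, n = 2) and LOF (1307 ± 169), and Fos came first in Krt14 8-week (6091 ± 159), Inv (1239 ± 158) and GOF (1929 ± 158). Last place went to Maff in both Krt14 groups and to Fosl1 in LOF, Inv and GOF. Over all 5 groups, 8 of the 9 members differed (moderated F test of limma, adjusted p of 0.05), where 52.1% of all tested genes were called; the exception was Fosl2 (adjusted p = 0.117, limma).

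**Figure D1:**
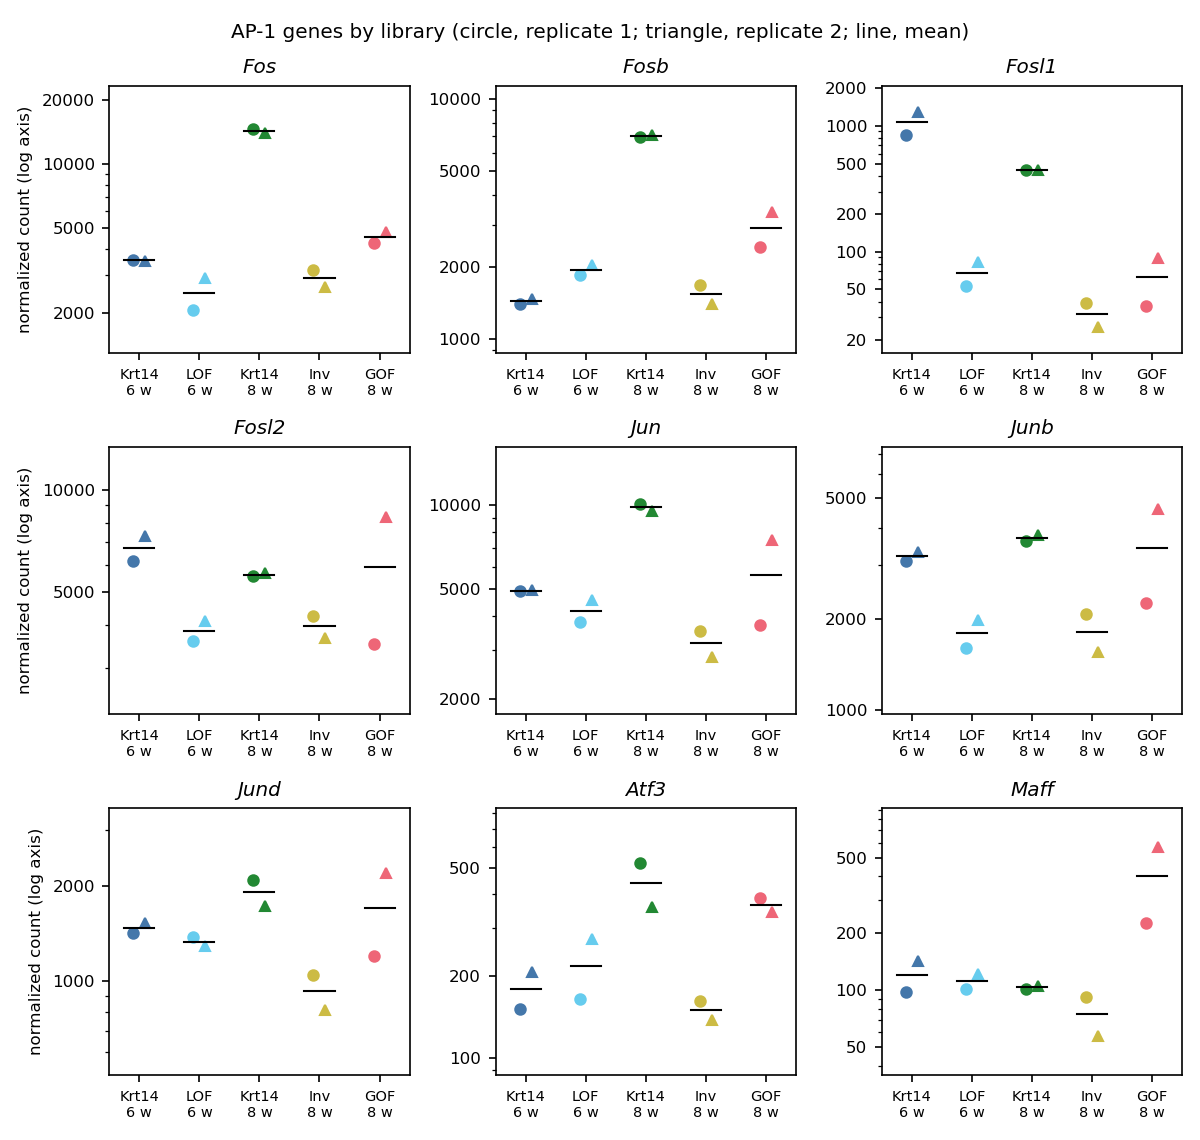
Normalized counts of the 9 AP-1 genes on a log axis, 1 panel per gene, with a circle for replicate 1, a triangle for replicate 2 and a line at the mean of each group. Fos reaches 14589 and 14061 in Krt14 8-week and at most 4800 in any library of another group, Fosl1 stands at 25 to 89 in LOF, Inv and GOF, and the GOF replicates lie far apart for Fosl1, Fosl2, Jun, Junb, Jund and Maff.

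Fos and Fosb, the strongly inducible Fos proteins, had their highest level in Krt14 8-week cells. Fos (ENSMUSG00000021250, chr12:85473890-85477273, plus strand of GRCm38) stood at 3542 and 3515 normalized counts in Krt14 6-week, 2062 and 2898 in LOF, 14589 and 14061 in Krt14 8-week, 3177 and 2651 in Inv, and 4273 and 4800 in GOF. Both Krt14 8-week libraries lay above all others, and only Inv and LOF, the lowest neighbours, overlapped. Relative to Krt14 6-week, Fos was 4.06-fold higher in Krt14 8-week (log2 change 2.02, SE 0.15, limma adjusted p = 6.58e-05). Relative to Inv it was 4.92-fold higher there (log2 2.30, SE 0.15, limma adjusted p = 4.46e-06).

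Fosb (ENSMUSG00000003545, chr7:19302696-19310051, minus strand) had 1402 and 1467 normalized counts in Krt14 6-week, 1846 and 2039 in LOF, 6964 and 7112 in Krt14 8-week, 1680 and 1394 in Inv, and 2419 and 3372 in GOF. Krt14 8-week again stood apart, with GOF second and Inv overlapping Krt14 6-week at the bottom. The rise from 6 to 8 weeks in Krt14 cells was 4.91-fold (log2 2.29, SE 0.15, limma adjusted p = 4.19e-05), and the difference from Inv 4.58-fold (log2 2.20, SE 0.15, limma adjusted p = 5.96e-06). These 4 calls of Fos and Fosb held in each of 17 alternative settings.

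In GOF both Fos and Fosb exceeded Inv, Fos by 1.56-fold (log2 0.64, SE 0.15, limma adjusted p = 0.0150) and Fosb 1.88-fold (log2 0.90, SE 0.15, limma adjusted p = 0.00303). Without GOF replicate 2 the Fos call was lost, and without Inv replicate 2 both were. Both were lower in GOF than in Krt14 8-week, Fos by 3.16-fold (log2 -1.66, SE 0.15, limma adjusted p = 3.07e-05) and Fosb by 2.43-fold (log2 -1.30, SE 0.15, limma adjusted p = 0.000140), in each of the 17 alternatives. In LOF, Fos fell 1.42-fold from Krt14 6-week (log2 -0.53, SE 0.15, limma adjusted p = 0.0195) while Fosb rose 1.35-fold (log2 0.44, SE 0.15, limma adjusted p = 0.0461). The Fosb call was kept in 8 of the 17 alternatives. Among others, it was lost when any 1 of the 4 libraries was left out, with no filter, after median-of-ratios scaling and by limma-voom. The Fos call was kept in 10 of the 17, and was lost when either Krt14 6-week library or LOF replicate 1 was left out.

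Fosl1, an AP-1 subunit linked to migration and invasion, had the widest range among the members and a different order of groups. It (ENSMUSG00000024912, chr19:5447547-5455946, plus strand) stood at 848 and 1292 normalized counts in Krt14 6-week, 53 and 82 in LOF, 447 and 444 in Krt14 8-week, 39 and 25 in Inv, and 37 and 89 in GOF. Both Krt14 groups lay far above LOF, GOF and Inv, and within those 3 the neighbouring groups overlapped. In LOF it was 15.9-fold lower than in Krt14 6-week (log2 -3.97, SE 0.40, limma adjusted p = 5.18e-05). In Krt14 8-week it was 13.9-fold higher than in Inv (log2 3.79, SE 0.40, limma adjusted p = 8.79e-05) and in GOF 7.07-fold lower than in Krt14 8-week (log2 -2.93, SE 0.40, limma adjusted p = 0.000422). Each of these 3 calls held in all 17 alternatives. Between 6 and 8 weeks the Krt14 values did not overlap but the log2 change of -1.23 (95% interval -2.11 to -0.35) missed the threshold (limma adjusted p = 0.105), and the GOF minus Inv change of 0.86 had an interval from -0.02 to 1.74. Fosl1 overlaps Ccdc85b on the opposite strand; Ccdc85b stood at 143 to 217 in the 10 libraries, which does not follow this order.

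Fosl2 (ENSMUSG00000029135, chr5:32135801-32157842, plus strand) had no called change in any of the 5 comparisons. Its values were 6172 and 7306 in Krt14 6-week, 3586 and 4120 in LOF, 5571 and 5682 in Krt14 8-week, 4260 and 3676 in Inv, and 3509 and 8335 in GOF. The GOF libraries spanned the whole range of the other 8. The nearest result to a call was LOF against Krt14 6-week (log2 -0.80, SE 0.29, limma adjusted p = 0.0563), which passed in 6 of 17 alternatives.

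Among the Jun genes, Jun was called higher in Krt14 cells at 8 than at 6 weeks, while the changes of Junb and Jund were not called and their 95% intervals overlap that of Jun. Jun (ENSMUSG00000052684, chr4:95049034-95052222, minus strand) stood at 4901 and 4936 in Krt14 6-week, 3786 and 4550 in LOF, 10152 and 9573 in Krt14 8-week, 3529 and 2832 in Inv, and 3713 and 7477 in GOF. Both Krt14 8-week libraries lay above all others. Jun was 2.01-fold higher at 8 than at 6 weeks (log2 1.00, SE 0.25, limma adjusted p = 0.0446) and 3.10-fold higher than in Inv (log2 1.64, SE 0.25, limma adjusted p = 0.000995). The first call (95% interval 0.46 to 1.55) was lost in 11 of the 17 alternatives, among them any 1 of its 4 libraries left out, and the second was kept in all 17 alternatives. In GOF, Jun was 1.76-fold lower than in Krt14 8-week (log2 -0.90, SE 0.25, limma adjusted p = 0.0191), a call lost in 7 of the 17 alternatives. Without GOF replicate 1 that log2 change was -0.40.

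Junb (ENSMUSG00000052837, chr8:84974484-84978718, minus strand), which can act as an antagonist of Jun in growth control, stood at 3103 and 3319 in Krt14 6-week, 1601 and 1976 in LOF, 3612 and 3790 in Krt14 8-week, 2071 and 1547 in Inv, and 2249 and 4618 in GOF. Both Krt14 groups lay above LOF and Inv. It was 1.80-fold lower in LOF than in Krt14 6-week (log2 -0.85, SE 0.26, limma adjusted p = 0.0311) and 2.05-fold higher in Krt14 8-week than in Inv (log2 1.05, SE 0.26, limma adjusted p = 0.0176). The LOF call was lost without any 1 of its libraries, and the Inv call without either Krt14 8-week library or Inv replicate 2. The change from 6 to 8 weeks was 0.21 on the log2 scale (95% interval -0.37 to 0.79), and that of Jund 0.37 (-0.15 to 0.88).

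Jund (ENSMUSG00000071076, chr8:70698949-70700616, plus strand), the member that is usually expressed constitutively, had the values 1417 and 1532 in Krt14 6-week, 1378 and 1288 in LOF, 2092 and 1724 in Krt14 8-week, 1047 and 811 in Inv, and 1205 and 2197 in GOF. Inv was lowest and did not overlap any group. Jund was 2.05-fold higher in Krt14 8-week than in Inv (log2 1.04, SE 0.23, limma adjusted p = 0.00961), a call lost without Krt14 8-week replicate 1 or Inv replicate 2, and 1.83-fold higher in GOF than in Inv (log2 0.82, SE 0.23, limma adjusted p = 0.0368). The GOF call was lost without GOF replicate 2, where the log2 change was 0.39, or without either Inv library. Jun overlaps Junos (416 to 1319 over the libraries), Jund overlaps Gm11175 (619 to 1779) and Junb overlaps Prdx2 (1295 to 2685), each on the opposite strand. The strand setting of the counting is not given in the sources used here, so the reads of these pairs cannot be told apart.

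Atf3 and Maff were the least abundant members outside Fosl1 and behaved differently from one another. Atf3 (ENSMUSG00000026628, chr1:191170296-191218039, minus strand) stood at 151 and 207 in Krt14 6-week, 164 and 273 in LOF, 521 and 360 in Krt14 8-week, 162 and 138 in Inv, and 388 and 346 in GOF. Krt14 8-week and GOF overlapped at the top, above the other 3 groups. Atf3 was 2.94-fold higher in Krt14 8-week than in Inv (log2 1.53, SE 0.27, limma adjusted p = 0.00279), 2.46-fold higher than in Krt14 6-week (log2 1.29, SE 0.27, limma adjusted p = 0.0277) and, in GOF, 2.45-fold higher than in Inv (log2 1.29, SE 0.27, limma adjusted p = 0.0105). The first held in all 17 alternatives; the second was lost without any 1 of its libraries and the third without either Inv library.

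Maff was the member raised only in the comparisons of GOF. It (ENSMUSG00000042622, chr15:79346621-79359076, plus strand) stood at 98 and 143 in Krt14 6-week, 102 and 122 in LOF, 102 and 105 in Krt14 8-week, 92 and 57 in Inv, and 227 and 575 in GOF, so both GOF libraries lay above the other 8. The level in GOF was 5.38-fold that in Inv (log2 2.30, SE 0.40, limma adjusted p = 0.00396) and 3.87-fold that in Krt14 8-week (log2 1.79, SE 0.40, limma adjusted p = 0.00710). Without GOF replicate 2 the difference from Inv was still called (log2 1.63); without Inv replicate 2 it was not. The difference from Krt14 8-week lost its call without Krt14 8-week replicate 1 (limma adjusted p = 0.0513) and was 1.13 on the log2 scale without GOF replicate 2.

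**Figure D2:**
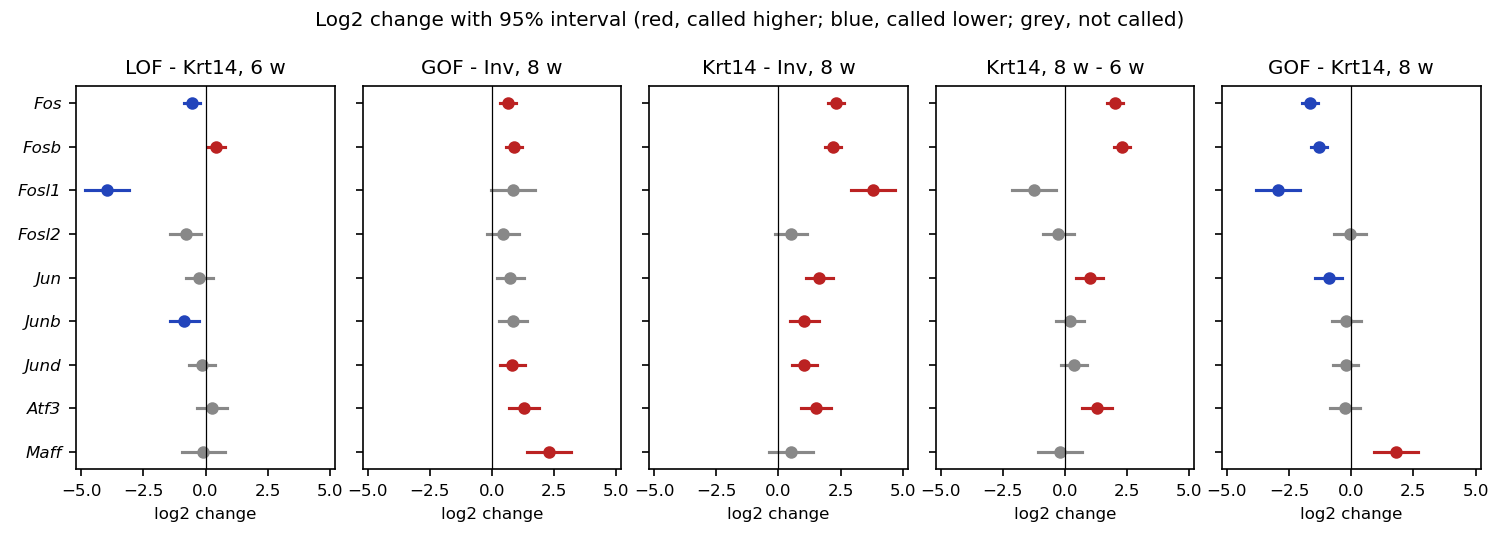
Log2 change with its 95% interval for each AP-1 gene in the 5 comparisons, from the limma model of all 10 libraries (red, called higher; blue, called lower; grey, not called). Fosl1 has the largest change in LOF, -3.97, and Maff the largest in GOF against Inv, 2.30, whereas Fos and Fosb lead in Krt14 cells at 8 against 6 weeks.

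Counted over the family, the comparisons were as follows. In Krt14 8-week against Inv, 7 of 9 members were higher (19.6% of all genes were called, 8.18% higher and 11.4% lower), with a median log2 change of 1.53 beside -0.10 for all genes. In Krt14 8-week against 6-week, 4 of 9 were higher (4.88% of all genes were called, 4.02% higher and 0.855% lower), with medians of 0.37 and 0.14. In GOF against Inv, 5 of 9 were higher (15.3% of all genes were called, 6.87% higher and 8.40% lower), with medians of 0.85 and -0.01. In LOF against Krt14 6-week, 1 was higher and 3 were lower (30.9% of all genes were called, 19.5% higher and 11.4% lower), with medians of -0.24 and 0.16. In GOF against Krt14 8-week, 1 was higher and 4 were lower, Fos, Fosb, Fosl1 and Jun (27.7% of all genes were called, 15.2% higher and 12.5% lower), with medians of -0.24 and 0.09. Krt14 8-week enters 3 of these comparisons and Inv enters 2, so the counts are not independent. Rescaling by the median of ratios moved the median of all genes in LOF from 0.16 to 0.02, and the share of calls that were higher from 63.1% to 49.0%. The same rescaling moved that share from 82.5% to 53.7% for 8 against 6 weeks in Krt14 cells.

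The number of members called depended on single libraries, and so did the number of all genes called, given in the last section. These counts therefore do not single out the members. For any single gene, permuting 2 against 2 libraries exactly cannot give a two-sided p below 0.333, so the calls rest on the spread pooled over all genes and groups. Leaving out 1 library gave 5 to 7 members in Krt14 8-week against Inv, 2 in each case in Krt14 8-week against 6-week (Fos and Fosb), and 1 or 2 in LOF against Krt14 6-week. For GOF against Inv the count was 3 without GOF replicate 2, 9 without GOF replicate 1, 3 without Inv replicate 1 and 0 without Inv replicate 2 (limma; 4 members had an unadjusted p under 0.05 there, and 6 were called by limma-voom on all libraries). For GOF against Krt14 8-week it was 8 without GOF replicate 2 and 3 without Krt14 8-week replicate 1. Fosl2 was called in that comparison in opposite directions, lower without GOF replicate 2 (log2 -0.68, limma adjusted p = 0.00428) and higher without GOF replicate 1 (0.57, limma adjusted p = 0.00758).

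With the Xist level as a covariate 0 members were called in GOF against Inv (limma; 3 had an unadjusted p under 0.05). Of all 21995 tested genes 40 were called there, in place of 3359 without the covariate. In that comparison 7 of the 9 member changes turned negative, those of Fosb (-0.088) and Maff (-0.16) among them. In LOF the same covariate gave 0 higher and 4 lower members, where 941 of all genes were called in place of 6805. The median log2 change of the members was -2.81 in place of -0.24, and that of all genes 0.28 in place of 0.16. The slope on Xist came from differences between the 2 libraries of a group, the widest in GOF (7589 and 56185). In LOF that slope was carried over a log2 Xist difference of 9.15 between groups, and in GOF against Inv over 6.94. Both are wider than the difference within any group, so these values are extrapolated. The same holds for the covariate in each comparison of LOF or GOF below. Xist and Survivin genotype moved together, so the 2 cannot be told apart. Of the 7 sebocyte markers, 7 were lower in Krt14 8-week than in Inv and 6 lower in GOF than in Inv. In Krt14 cells 6 of them were higher at 8 than at 6 weeks. Of the 7 melanocyte markers 6 were higher in LOF and 3 lower in Krt14 8-week than in Inv. At 8 against 6 weeks in Krt14 cells 3 melanocyte markers were higher, as were 2 in GOF against Krt14 8-week. The part of both marker sets in the AP-1 results was not tested. Of the 6 tested fibroblast markers, 2 were higher in LOF and 2 lower in Krt14 8-week than in Inv.

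The GOF libraries themselves differed. Replicate 2 was 2.38-fold higher than replicate 1 in Fosl2, 2.01-fold in Jun, 2.05-fold in Junb, 1.82-fold in Jund, 2.53-fold in Maff and 2.41-fold in Fosl1, but 1.12-fold in Fos, 1.39-fold in Fosb and 0.892-fold in Atf3. In the other 4 groups the larger library exceeded the smaller by at most 1.66-fold for any member. GOF replicate 2 also had the higher Birc5, Xist and endothelial marker values given above, and the lower Ddx3y value. Their part in this spread was not tested.

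**Figure D3:**
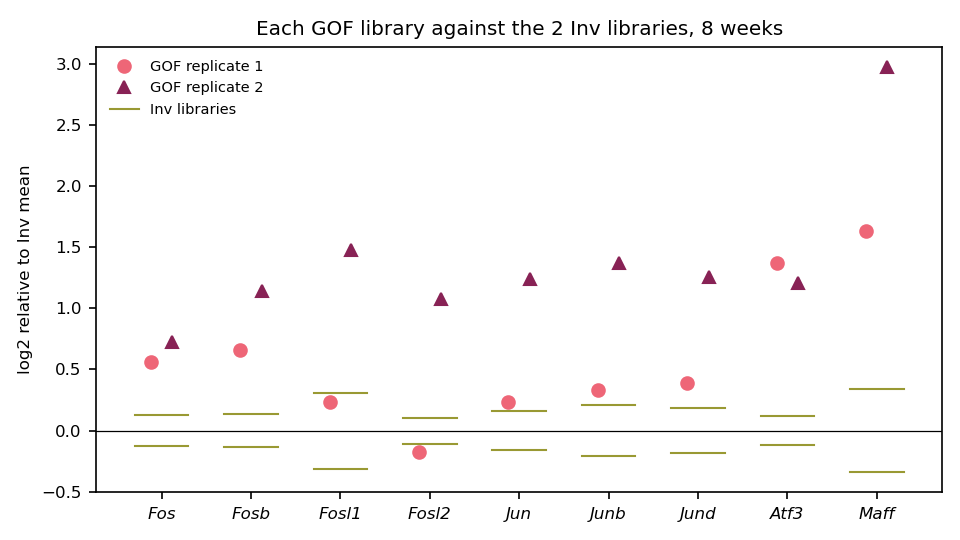
Log2 level of each GOF library relative to the mean of the 2 Inv libraries (lines mark the 2 Inv libraries). For Fos, Fosb, Jun, Junb, Jund, Atf3 and Maff both GOF libraries lie above both Inv libraries; for Fosl1 and Fosl2 replicate 1 does not.

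The make-up of the family shifted between groups when levels were compared per kilobase of exon. Fosl1 gave 17.7% ± 3.81 (SD, n = 2) of the summed Fos family level in Krt14 6-week, against 2.73% ± 0.0330 in Krt14 8-week, 1.83% ± 0.234 in LOF, 0.814% ± 0.153 in Inv and 0.980% ± 0.390 in GOF. Fos gave 76.0% ± 0.702 in Krt14 8-week and 51.0% ± 4.36 in Krt14 6-week. The share of Fosl2 was 7.25% ± 0.223 in Krt14 8-week and 19.4% to 23.5% on average in the other 4 groups. Jun gave 52.9% ± 0.117 of the Jun family level in Krt14 8-week and 40.4% to 45.2% elsewhere. The summed Fos family level was 8018 ± 135 per kilobase in Krt14 8-week, 2952 ± 237 in Krt14 6-week, 3035 ± 637 in GOF, 1911 ± 238 in Inv and 1797 ± 322 in LOF. These shares are descriptions of 2 libraries each.

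**Figure D4:**
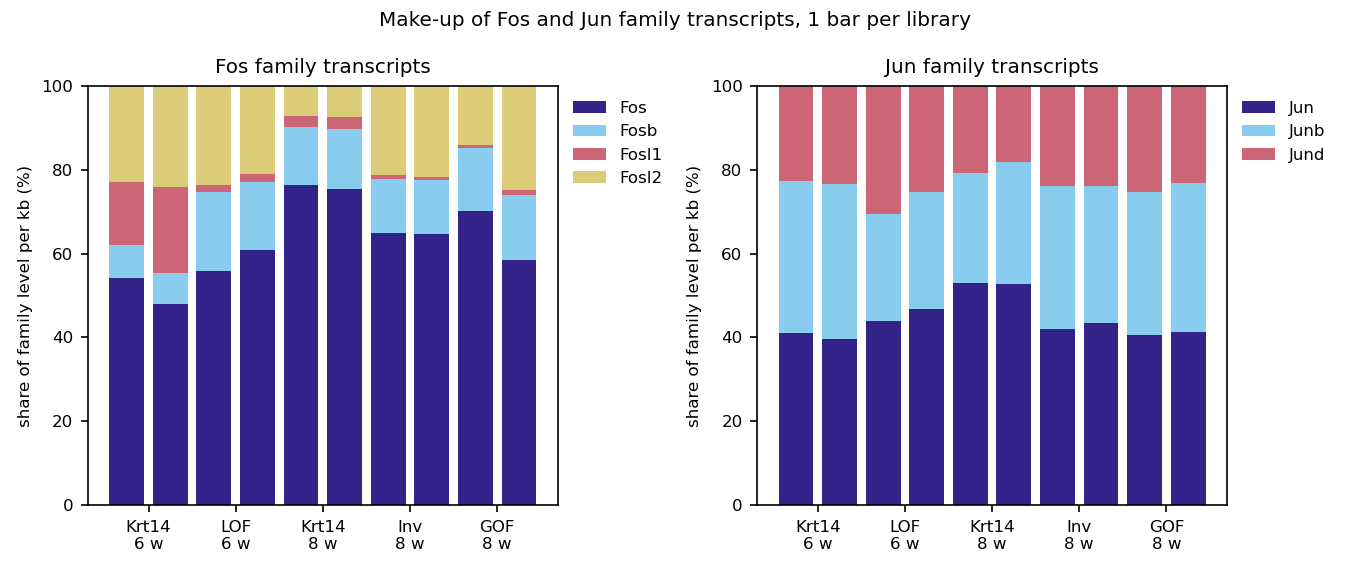
Share of each gene in the summed level per kilobase of the Fos family (left) and the Jun family (right), 1 bar per library. Fosl1 forms a visible layer in both Krt14 6-week bars, 15.0% and 20.4%, and Fos fills 75.5% and 76.4% of the Krt14 8-week bars.

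Other genes of the pathway were taken from 5 lists, and the counts below give genes called out of those tested, beside the shares of all genes above. Of the dimer partners and inhibitors (bZIP proteins, 17 of 20 passing the filter), 5 were higher and 2 lower in LOF, with a median log2 change of 0.38 beside 0.16 for all genes. There were 3 higher and 1 lower in GOF against Inv, 2 of each in Krt14 8-week against Inv, and 3 higher and 2 lower in GOF against Krt14 8-week. None was called between 6 and 8 weeks in Krt14 cells (limma; 4 had an unadjusted p under 0.05, and none was called by limma-voom), and leaving out Krt14 6-week replicate 1 gave 2.

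Nfe2l2, which encodes the antioxidant regulator Nrf2, had 1376 and 1369 in LOF against 2351 and 2870 in Krt14 6-week, 1.90-fold lower (limma adjusted p = 0.000279). In Inv it had its lowest values, 897 and 951, with 1609 and 1828 in GOF (limma adjusted p = 0.00101) and 1826 and 2000 in Krt14 8-week (limma adjusted p = 0.000170). Atf4, the effector of the integrated stress response, fell in LOF by 0.86 on the log2 scale, and Atf7, a relative of Atf2, was higher by 0.46. Against Krt14 8-week, Ddit3, a stress-induced C/EBP protein that forms dimers with other bZIP factors, was higher in GOF by 1.05 on the log2 scale and Creb1 was lower (-0.61). Maf was lower in Krt14 8-week than in Inv (log2 -0.80), as was Bach2 (-1.01). Bach1, a repressor that pairs with small Maf proteins such as Maff, had 2131 and 4610 in GOF against 1593 and 1522 in Inv (log2 1.01, limma adjusted p = 0.0285), with replicate 2 again the higher. The count in GOF against Inv was 1 without either Inv library, 2 without GOF replicate 2 and 7 without GOF replicate 1. In LOF the 7 calls became 6 without Krt14 6-week replicate 1, 4 without Krt14 6-week replicate 2 or LOF replicate 1, and 3 without LOF replicate 2.

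Of 25 kinases and nuclear factors upstream of AP-1, 5 were higher and 9 lower in LOF (median log2 change -0.01 beside 0.16 for all genes), and 6 were higher with none lower both in GOF against Inv and in Krt14 8-week against Inv. Elk3, an ETS factor that binds serum response elements with SRF, had 238 and 181 in LOF against 1199 and 1488 in Krt14 6-week, 6.41-fold lower (limma adjusted p = 4.42e-06). Map2k3, a kinase that activates p38, had 793 and 828 against 2081 and 1992 there, 2.51-fold lower (limma adjusted p = 2.12e-05). Map2k4, which activates JNK, fell by 0.81 on the log2 scale. Among the 5 higher genes were Mapk9, which encodes JNK2 (log2 0.46), and Map2k6, another activator of p38 (0.97), both named after their values were seen. Map2k3 was 2.21-fold higher in GOF than in Inv (1292 and 1485 against 667 and 588; limma adjusted p = 0.000132), Map3k1 was higher by 0.91 on the log2 scale and Mapk14, which encodes p38 alpha, by 0.50.

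From 6 to 8 weeks in Krt14 cells the list had 2 calls. Map2k3 fell 1.47-fold (limma adjusted p = 0.0258) and Mapk8, which encodes JNK1, rose 1.33-fold (limma adjusted p = 0.0492). Leaving out any 1 library ended both (limma; 2 to 6 genes of the list then had an unadjusted p under 0.05, and limma-voom on all libraries called 1). In LOF the count of the list was 6 without Krt14 6-week replicate 2 or LOF replicate 2, 9 without Krt14 6-week replicate 1 and 10 without LOF replicate 1. For GOF against Inv it was 2 without either Inv library and 10 without GOF replicate 1. In Krt14 8-week against Inv it was 3 without Krt14 8-week replicate 1. In GOF against Krt14 8-week 5 were higher and 8 lower, and 7 were called without Krt14 8-week replicate 2.

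Of 15 MAP kinase phosphatases and Sprouty-type inhibitors, many of them induced by the ERK signalling they restrain, 2 were higher and 4 lower in LOF, and 5 higher and 3 lower in Krt14 8-week against Inv. Dusp6, the cytoplasmic ERK phosphatase, had 729 and 1105 in LOF against 7533 and 7185 in Krt14 6-week, 8.03-fold lower (limma adjusted p = 3.10e-05). It had 5030 and 6460 in Krt14 8-week against 895 and 856 in Inv, 6.56-fold higher (limma adjusted p = 7.56e-05). Like Fosl1, it was high in both Krt14 groups. Dusp7, a related ERK phosphatase, fell by 1.29 on the log2 scale in LOF and was higher in Krt14 8-week than in Inv by 1.49, whereas Spred2, an inhibitor of Ras to ERK signalling, rose by 0.87 in LOF. Dusp4, a nuclear phosphatase, went the other way from Dusp6, with 146 and 189 in Krt14 8-week against 835 and 775 in Inv, 4.81-fold lower (limma adjusted p = 5.38e-05).

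Of the phosphatase and Sprouty genes, 5 were higher and 1 lower in GOF against Inv. Dusp1, a nuclear phosphatase and immediate early gene, had 1684 and 2223 against 983 and 829 (limma adjusted p = 0.00778). The total of 6 became 3 without GOF replicate 2 or Inv replicate 1, 2 without Inv replicate 2 and 12 without GOF replicate 1. In Krt14 cells Dusp1 (log2 1.06) and Dusp4 (1.58) were higher and Dusp7 (-0.66) lower at 8 than at 6 weeks, 3 calls that became 1 or 2 without 1 library, and 0 without Krt14 8-week replicate 2 (limma; 3 then had an unadjusted p under 0.05, and limma-voom on all libraries called 3). In GOF against Krt14 8-week 3 were higher, Spred2 (log2 0.67) and Spry2 (1.16) among them, and 2 lower, Dusp6 (-2.06) among them; the total of 5 was 9 without GOF replicate 1, 3 without Krt14 8-week replicate 1 and 2 without Krt14 8-week replicate 2.

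Of 24 tested genes reported as AP-1 targets in keratinocytes (25 listed, Il6 below the filter), 19 were lower and 1 higher in LOF, with a median log2 change of -3.29 (-2.67 with values under 3 reads raised to that floor) beside 0.16 for all genes. In Krt14 8-week against Inv 15 were higher and none lower (median 2.17), and in GOF against Krt14 8-week 16 were lower and none higher (median -2.17, or -1.94 with the floor). Krt6a, a keratin induced on wounding, had 38838 and 53795 in Krt14 6-week, 3806 and 1818 in LOF, 31648 and 35496 in Krt14 8-week, 997 and 1003 in Inv and 1907 and 1529 in GOF. Both Krt14 groups stood above the other 3 by more than the spread of any group. Sprr1b, a cornified envelope precursor, had 662 and 1026 in Krt14 6-week, 8 and 7 in LOF, 727 and 651 in Krt14 8-week, 12 and 10 in Inv, and 51 and 21 in GOF, where the floor of 3 reads is 6.76 to 7.80. Ereg, an EGF receptor ligand, had 244 and 445 in Krt14 6-week, 246 and 261 in Krt14 8-week and 5 to 8 in the other 6 libraries, at or near that floor. The summed neutrophil markers (5 genes) were 8 and 8 in LOF against 63 and 51 in Krt14 6-week, and the summed leukocyte and Langerhans markers (7 genes) 707 and 1163 against 419 and 305; their part was not tested.

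In GOF against Inv 4 targets were higher and 1 lower. Itga5, the fibronectin receptor subunit, had 383 and 310 against 203 and 186 (limma adjusted p = 0.00548). Hbegf, another EGF receptor ligand, had 101 and 250 against 41 and 55 (limma adjusted p = 0.0104), and S100a9, a calcium-binding protein of stressed epidermis and of neutrophils, 73 and 52 against 10 and 16 (limma adjusted p = 0.0134). Summed neutrophil markers were 15 and 11 in GOF and 13 and 16 in Inv. The total of 5 became 0 without Inv replicate 2 (limma; 7 then had an unadjusted p under 0.05, and limma-voom on all libraries called 3), 2 without Inv replicate 1 and 9 without GOF replicate 1. Between 6 and 8 weeks in Krt14 cells, where Fos, Fosb, Jun and Atf3 rose, none of the 24 was called (limma; 3 had an unadjusted p under 0.05, and limma-voom called 2). The most abundant of them were Cd44, the hyaluronan receptor (30304 and 32090 at 8 weeks against 38019 and 39886; log2 -0.32), and Krt6a (log2 -0.45).

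Of 20 other immediate early and dissociation-associated genes (such as Egr1, Nr4a1 and heat shock genes), 15 were higher and none lower in Krt14 8-week against Inv, with a median log2 change of 1.09 beside -0.10 for all genes. Nr4a1, an orphan nuclear receptor, had 2332 and 2418 against 330 and 262 (limma adjusted p = 1.44e-05), and Egr2, a zinc finger factor, 1412 and 1492 against 203 and 192 (limma adjusted p = 0.000145). Egr1, its relative, had 16407 and 17878 against 4524 and 3825. Genes that respond to isolation of cells therefore moved with the AP-1 genes in this comparison; the part of isolation was not tested.

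In LOF 15 of the 20 were lower, those of smallest p being Hsph1 (log2 -2.02), Ier5 (-1.93) and Hspa8 (-1.01), and 2 were higher, the near-identical Hspa1a and Hspa1b, whose reads may be split between them. In GOF against Inv 9 were higher and 4 lower, with Klf4, a barrier factor, at 5516 and 6638 against 2401 and 2247 (limma adjusted p = 0.000130) and Klf6 at 1410 and 3934 against 701 and 775 (limma adjusted p = 0.0102). Ier5 was lower (log2 -0.73). The total of 13 became 7 without GOF replicate 2, 2 without Inv replicate 1 and 1 without Inv replicate 2. In GOF against Krt14 8-week 13 were lower and none higher, those of smallest p being Egr3 (log2 -1.58), Ier5 (-1.67) and Hsph1 (-1.65), and 8 were called without either Krt14 8-week library.

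Between 6 and 8 weeks in Krt14 cells 1 of these 20 was higher and 3 were lower. Nr4a1 rose 2.48-fold (2332 and 2418 against 810 and 1103; limma adjusted p = 0.0144), while the chaperones Hsph1 (log2 -0.84), Hspa8 (-0.40) and Hsp90aa1 (-0.46) fell. The Egr1 change at that step, 0.93 on the log2 scale, was not called (limma adjusted p = 0.0512). The 4 calls became 2 without Krt14 6-week replicate 1, 1 without Krt14 6-week replicate 2 and 0 without either Krt14 8-week library (limma; 7 and 9 then had an unadjusted p under 0.05, and limma-voom on all libraries called 5).

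Once the Xist level was a covariate, the counts of all 5 lists were smaller in each comparison of LOF or GOF, as were those of all genes. Genes called of 21995 were 941 in LOF against Krt14 6-week, in place of 6805. They were 40 in GOF against Inv, in place of 3359, and 202 in GOF against Krt14 8-week, in place of 6098. In GOF against Inv all 5 lists had 0 calls (limma), where 3 dimer partners, 4 upstream genes, 6 phosphatase and Sprouty genes, 7 targets and 8 immediate early genes had an unadjusted p under 0.05; limma-voom without the covariate called 5, 6, 6, 3 and 13. Against Krt14 8-week, in GOF, the dimer partners and the upstream genes had 0 calls (limma; 4 and 2 had an unadjusted p under 0.05, and limma-voom without the covariate called 5 and 13), and the other 3 lists 2, 2 and 7. In LOF the dimer partners had 1 higher and 2 lower, the upstream genes 1 lower, the phosphatase and Sprouty genes 3 lower, the targets 1 higher and 3 lower, and the immediate early genes 9 lower. Between 6 and 8 weeks in Krt14 cells the immediate early genes had 11 calls in place of 4.

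**Figure D5:**
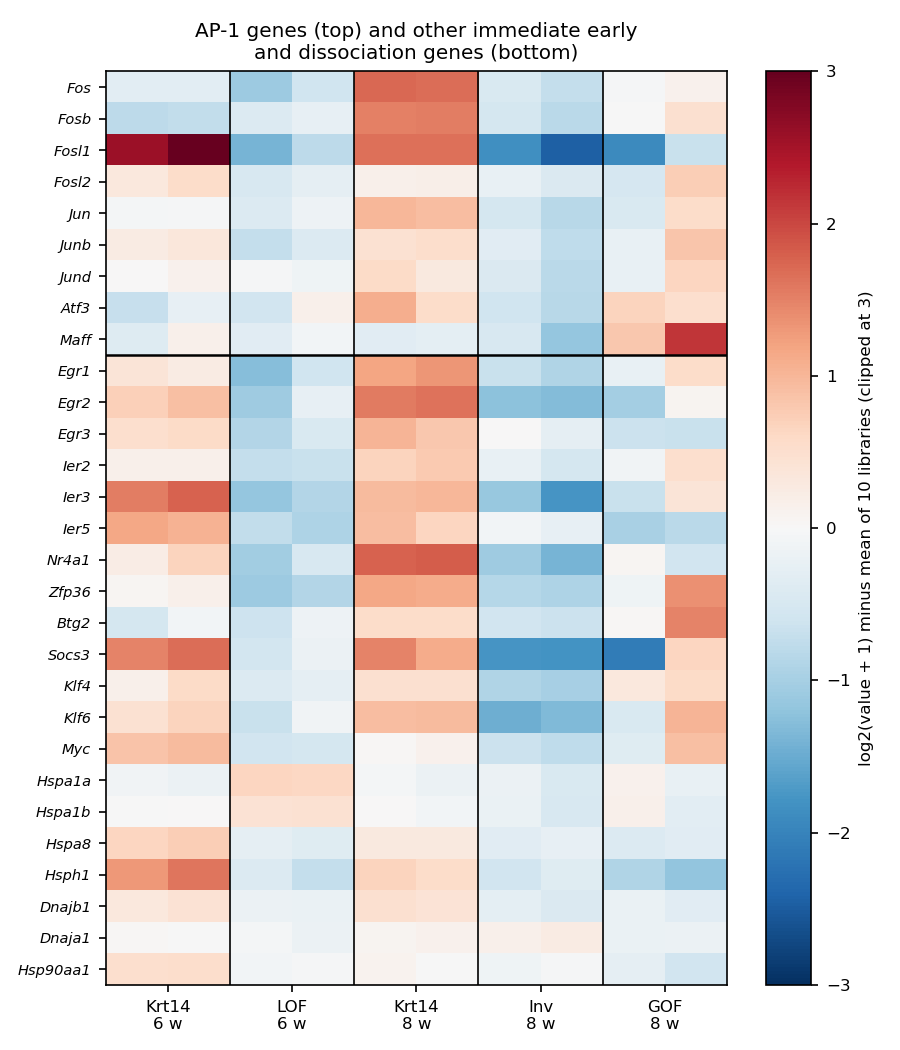
Log2 level of the 9 AP-1 genes (above the line) and 20 other immediate early and dissociation genes (below it) in the 10 libraries, centred on the mean of each gene and clipped at 3. Fos, Fosb, Egr1, Egr2 and Nr4a1 are highest in both Krt14 8-week libraries, whereas Fosl1 and Hsph1 are highest in both Krt14 6-week libraries.

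The genes whose profiles over the 10 libraries were most like the members' were found by Pearson correlation of log2 values among 11981 genes. All points share the scaling of their library and the groups, so these are descriptions with no test. Fos was most like Arg1 (r = 0.94) and Wwp2 (0.93), and Fosb like Gnao1 (0.98) and Pycard (0.91). Fosl1 was most like Mmp13 (0.99) and Klk10 (0.99), 2 genes of secreted proteases. Jun was most like its antisense neighbour Junos (0.98) and Ppm1d (0.94), Junb like Cnksr3 (0.98) and Mink1 (0.97), and Jund like Fhdc1 (0.96) and Cst6 (0.95). Fosl2 was most like Eif1 (0.96) and Coq10b (0.94). Atf3 was most like Dusp1 (0.94) and Perm1 (0.83), and Maff like Ssh3 (0.98) and Errfi1 (0.97), an inhibitor of the EGF receptor that stood at 2520 and 10337 in GOF against 565 and 520 in Inv. Among the members the closest pair was Fos and Fosb (0.93).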

How the data were processed

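Bulk RNA-seq libraries (10, in 5 groups of 2 from the titles) were read from 1 deposited table. Per the submitters' processing notes, STAR, HTSeq and GRCm38 (mm10) were used; the sources used here give no versions, annotation release or strand setting. Per the labels, RNA came from sorted cells and libraries from the Ovation Solo kit. The values as deposited by the authors are a normalized score, not raw counts: library totals run from 20011195 to 20014054. Among values below 20000, 99.3% to 99.9% equal whole reads times 1 step (2.25 to 2.60), rounded up.

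Log2(value + 1) was fitted in limma 3.58.1 (R 4.3.3; lmFit, eBayes with trend) as 1 model of 5 groups, for genes that reached 10 in 2 or more libraries, two-sided, with Benjamini-Hochberg adjustment over 21995 genes within each of 5 comparisons and calls at an adjusted p of 0.05. Fold changes quoted are ratios of group means of the deposited values; log2 changes understate those of low genes. Levels per kilobase use the union of GENCODE M21 exons. The model was also run on simulated data, whose outcome is not given here, so the calls take no support from it. Replicate numbers do not pair libraries. Genes named from a list were up to 3 called genes of smallest p per comparison, or the 2 most abundant where none was called; for each member the 2 genes of highest correlation were named. Egr1, Hspa1a, Hspa1b, Hsp90aa1, Mapk9, Map2k6 and Ddx3y were named after their values were seen. 1 gene of the dimer partner list is not reported here and was left out of its counts. The members and gene lists were chosen with earlier results of these data known. Alternatives covered the pseudocount, filter, scaling, model, libraries left out, a replicate block and Xist as a covariate; list counts without GOF replicate 2 were added after seeing the data. Floors of 3 reads cover counting error only, and the 95% intervals are those of the limma model.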

Additional observations from a re-analysis of the deposited data

How the results depend on the processing

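Of the log2 changes recomputed under each alternative, 1702 kept direction and call, 234 lost the call, 27 gained one and 26 reversed; causes were not tested unless fewer samples or genes entered. Genes called in LOF against Krt14 6-week, GOF against Inv, Krt14 8-week against Inv, Krt14 8 against 6 weeks and GOF against Krt14 8-week, in that order, were 6805, 3359, 4309, 1073 and 6098.

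At an adjusted p of 0.01 they were 3843, 1339, 2157, 190 and 3316 (7023 for any difference among the 5 groups). Leaving out 1 library gave 3759 to 5239, 913 to 6198, 1897 to 2253, 77 to 829 and 3308 to 7293 (8969 to 13224 for any difference). With only the groups compared, GOF against Inv had 258, 8 against 6 weeks 8 and GOF against Krt14 8-week 2660. Krt14 8-week against Inv had 6998 with array weights, and 8 against 6 weeks had 2644. The latter had 536 with no filter, 468 after quantile normalization and 701 by limma-voom on recovered reads.

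Members called were 1 in LOF, 3 in GOF against Inv and 2 in 8 against 6 weeks with no filter, and 1, 2 and 2 at an adjusted p of 0.01. After quantile normalization 8 against 6 weeks had 2. With only the groups compared there were 0 in GOF against Inv (limma; 4 had an unadjusted p under 0.05 and limma-voom called 6), 2 in 8 against 6 weeks and 3 in GOF against Krt14 8-week. Leaving out 1 library gave 1 to 2, 0 to 9, 5 to 7, 2 to 2 and 3 to 8 (7 to 9 for any difference).

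With the Xist level as a covariate, which moves with Survivin genotype, genes called were 941 in LOF, 40 in GOF against Inv, 1780 in 8 against 6 weeks and 202 in GOF against Krt14 8-week, and 0 members were called in GOF against Inv (limma; 3 had an unadjusted p under 0.05, and limma-voom without the covariate called 6). Log2 changes then reversed in LOF for Fosb (-0.87). In GOF against Inv they reversed for Fosb (-0.088), Fosl1 (-1.58), Fosl2 (-1.83), Jun (-1.21), Junb (-1.27), Jund (-0.48), Maff (-0.16), Bach1 (-1.03), Map3k1 (-0.17), Hbegf (-0.97) and Klf6 (-1.14). In GOF against Krt14 8-week they reversed for Atf3 (0.19), Maff (-1.06), Creb1 (0.057), Map3k1 (-0.23) and Spry2 (-1.03).

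Leaving out 1 library reversed changes that were not called with all libraries. In LOF, Maff ranged from -0.36 to 0.19 (0.04 without LOF replicate 1) and Atf3 from -0.11 to 0.62. Fosl2 in GOF against Inv ranged from -0.17 to 1.07, and Maff in 8 against 6 weeks from -0.46 to 0.078. In GOF against Krt14 8-week, Atf3 ranged from -0.51 to 0.025, Fosl2 from -0.68 to 0.57, Junb from -0.72 to 0.32 and Jund from -0.66 to 0.21; without GOF replicate 2 these last 3 were called lower, and without GOF replicate 1 Fosl2 was called higher.

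With the replicate block the counts were 6707, 3414, 4249, 987 and 6042; same-numbered libraries had correlations of -0.054 to 0.041 in their deviations, so the numbers give no pairing. Depth limits Ereg in LOF, Inv and GOF and Sprr1b in LOF and Inv, which lie near the floor of 3 reads.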
